A study of Bos taurus with 3 samples.

Results

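The miR-17-92 cluster is a set of miRNAs that are cut from a single primary transcript, and its members were followed here in large dense-core vesicles isolated from chromaffin cells of cows, the cells of the adrenal medulla that secrete catecholamines. Members were taken by name: the 6 names miR-17, miR-18a, miR-19a, miR-19b, miR-20a and miR-92a, with every arm and every hairpin on which the count table lists them. This gave 7 mature miRNAs on 9 of the table's 919 rows, of 793 mature miRNAs in all. Small RNA was sequenced in 3 libraries from adrenal medulla of cows from a local slaughter, of which 1 was labelled a biological replicate and 2 were labelled technical replicates. All 3 were untreated as far as the labels say, and the labels give no age, sex, strain or number of animals, nor the step that was repeated for the technical pair. The technical pair therefore entered every mean as a single averaged preparation, and SDs refer to n = 2 preparations. Whole chromaffin cells were not analysed here, so nothing can be said of enrichment over the cell or of a place within the vesicle.

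The cluster is transcribed as a host RNA, MIR17HG in human, which the factors MYC and E2F are known to activate, and it is best known from proliferating cells, B-cell development and tumours. Apart from the arm opposite miR-17-5p, its members fall into 4 seed groups, the seed being the short stretch near the 5′ end that pairs with target mRNAs. That opposite arm was placed in none of these groups. miR-17-5p and miR-20a share a seed and are known to repress cell-cycle regulators such as E2F1 and CDKN1A, miR-18a has a closely related seed, miR-19a and miR-19b share a seed of their own, and miR-92a is known from endothelial cells and erythroid cells. Mammals carry related copies, the miR-106b-25 cluster within the MCM7 gene and the miR-106a-363 cluster on the X chromosome. In the ARS-UCD2.0 assembly, used only for gene order, the 6 neighbouring hairpin genes run in the order MIR17, MIR18A, MIR19A, MIR20A, MIR19B and MIR92A-1, while MIR19B-2 and MIR92A-2 stand among the genes of the miR-106a-363 cluster.

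Counting each mature miRNA once, the biological replicate comprised 6708654 counts, against 5546771 and 6251664 in technical replicates 1 and 2, and the limit that a count of 0 allows (3 counts) lay between 0.447 and 0.541 CPM, counts scaled to a common total. The labelled cell type was checked on miR-375 and miR-7, which endocrine cells are known to make in quantity: these markers took 47.3% of the biological replicate and 44.1% and 42.8% of technical replicates 1 and 2. Markers of vessel wall and connective tissue (miR-143, miR-145, miR-199a, miR-199b and miR-214) were also present, at 1.02% in the biological replicate against 1.68% and 1.89% in the technical replicates. The intervals below are exact Clopper-Pearson 95% intervals and cover counting error only.

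All 7 members were detected in every library, each with at least 10 counts, and together they held 0.388% ± 0.0267 (SD, n = 2) of the miRNA counts. Their summed share was 0.407% in the biological replicate (interval 0.402 to 0.412%), against 0.375% (0.370 to 0.381%) in technical replicate 1 and 0.363% (0.358 to 0.368%) in technical replicate 2. The biological replicate thus lay above both technical replicates by more than counting error. The technical replicates also differed from each other by more than counting error, since their intervals did not overlap. Without miR-92a the order was the other way, with 0.146% in the biological replicate against 0.157% and 0.153% in the technical replicates.

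Levels of the members were far apart, with a 119-fold span between the highest and the lowest mean. The cluster's hairpins share a transcript, but miR-92a, the highest, is also listed on mir-92a-2 of the miR-106a-363 cluster. Its reads thus cannot be assigned to that transcript alone. miR-20a still had 40.6 times the counts of miR-18a in the biological replicate, and 32.3 and 35.1 times in technical replicates 1 and 2. miR-92a was the most abundant, with 2604 CPM in the biological replicate, against 2185 and 2099 for technical replicates 1 and 2, and ranked 42 of the 793 by its mean. miR-20a followed with 713 CPM in the biological replicate and 751 and 742 CPM in the technical replicates, and miR-17-5p with 426 CPM, against 382 and 383 CPM. These 3 values of miR-20a lay close together, whereas miR-92a and miR-17-5p were highest in the biological replicate.

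Both miR-19 miRNAs were less abundant than their neighbour miR-20a. miR-19b had 246 CPM in the biological replicate, while technical replicates 1 and 2 had 327 and 311 CPM. miR-19a had 42.2 CPM in the biological replicate and 57.2 and 44.8 CPM in the technical ones, and its technical replicates were further apart (log2 ratio of -0.35) than the median miRNA (0.12, absolute value over 367 miRNAs). miR-19b was thus lowest in the biological replicate with no overlap, and so was miR-19a, though within the counting intervals of technical replicate 2 (39.7 to 50.4 CPM).

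The scarcest members were miR-17-3p, the opposite arm of the first hairpin, and miR-18a, whose processing from the transcript is known to be aided by the RNA-binding protein hnRNP A1 in human cells. miR-17-3p had 19.8 CPM in the biological replicate (133 counts), against 28.7 and 27.5 CPM in technical replicates 1 and 2 (159 and 172 counts). miR-18a had 17.6 CPM in the biological replicate (118 counts), against 23.3 and 21.1 CPM in the technical replicates (129 and 132 counts). Both were lowest in the biological replicate.

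By falling mean the order was miR-92a (2373 ± 326 CPM), miR-20a (730 ± 23.4), miR-17-5p (404 ± 31.1), miR-19b (282 ± 51.9), miR-19a (46.6 ± 6.21), miR-17-3p (24.0 ± 5.84) and miR-18a (19.9 ± 3.25; all SD, n = 2), and each library gave the same order. Neighbours in this order were further apart than their SDs except miR-17-3p and miR-18a, whose intervals overlapped in every library. Reads were not divided by length, since mature miRNAs are of similar length. Ligation of adapters is known to favour some miRNAs over others, so a level compared between miRNAs also carries that preference, which was not measured.

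**Figure D1:**
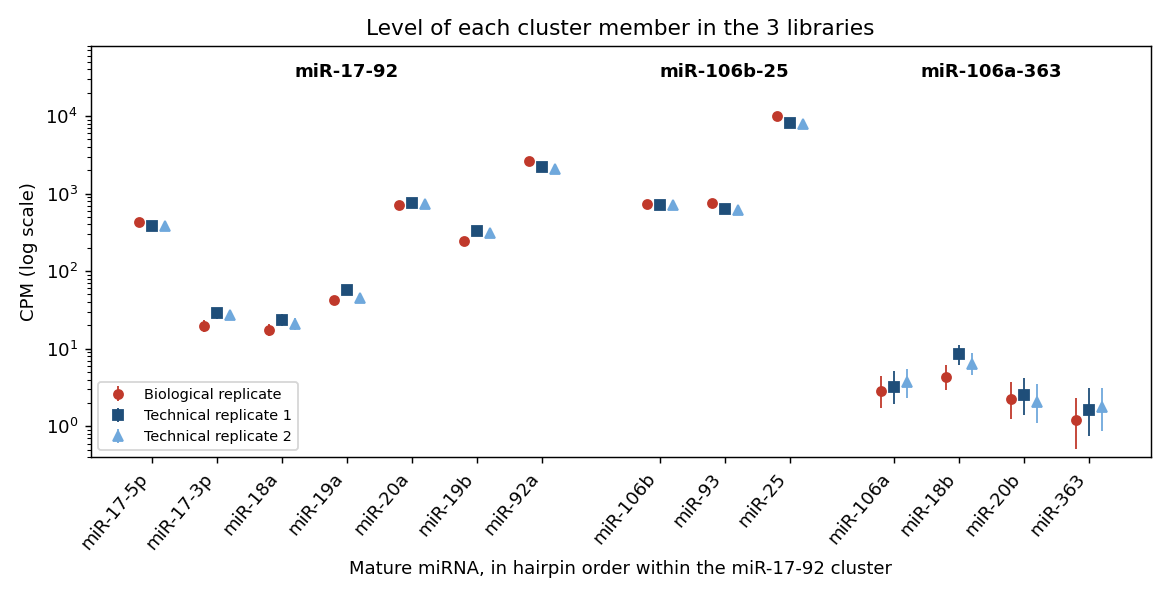
CPM of each member and of the miRNAs of the 2 related clusters in the biological replicate (circles) and technical replicates 1 (squares) and 2 (triangles), on a log scale, with exact 95% intervals of counting. The 7 members span 17.6 to 2604 CPM, and the miRNAs particular to the miR-106a-363 cluster are scarcer, at 8 to 47 counts in any library.

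miR-19b and miR-92a are each listed on a pair of hairpins, and their reads cannot be assigned to either. On mir-92a-1, within the cluster, miR-92a had 17467 counts in the biological replicate and 12122 and 13124 in technical replicates 1 and 2. On mir-92a-2, of the miR-106a-363 cluster, it had 17112 counts in the biological replicate and 11906 and 12851 in the technical replicates, or 97.9 to 98.2% as many. miR-19b had 1647 counts on both hairpins in the biological replicate. In the technical replicates its row on mir-19b-2, of the miR-106a-363 cluster, held 6 and 4 counts more than its row on mir-19b, within the cluster. Since the fuller row was used, the values given for miR-19b are those of its row on mir-19b-2, and those for miR-92a are of its row on mir-92a-1. The rows thus hold nearly the same numbers, and summing them would enter most of these reads more than once if they are shared. The 4 miRNAs particular to the miR-106a-363 cluster (miR-106a, miR-18b, miR-20b and miR-363) had between 8 and 47 counts in any library, and summed to 71 counts in the biological replicate and 88 and 87 in the technical replicates.

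The arms of the miR-17 hairpin, which are released from the same precursor, were read at unequal levels. miR-17-5p had 21.5 times the counts of miR-17-3p in the biological replicate, and 13.3 and 13.9 times in technical replicates 1 and 2. On the log2 scale the biological replicate differed from the technical pair by 0.66 ± 0.15 (SE of counting), while technical replicate 2 differed from 1 by 0.07 ± 0.16. The arm ratio does not depend on how libraries are scaled to each other.

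The make-up of the cluster's counts was nearly the same in the technical pair and differed in the biological replicate. miR-92a took 64.0% of the members' counts in the biological replicate (interval 63.4 to 64.6%), against 58.2% (57.5 to 58.9%) and 57.9% (57.2 to 58.5%) in technical replicates 1 and 2. miR-19b took 6.03% in the biological replicate, against 8.72% and 8.56%, and miR-20a took 17.5%, against 20.0% and 20.4%. miR-17-5p took 10.5% in the biological replicate and 10.2% and 10.6% in the technical replicates, with overlapping intervals. The chi-square statistic over the 7 members was 44.5 per degree of freedom for the biological replicate against either technical replicate, and 1.68 between the technical replicates. With miR-92a left out it was 19.8 and 14.0 for the biological replicate against technical replicates 1 and 2, and 1.90 between these. These statistics compare the reads of 2 libraries at a time, not animals.

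**Figure D2:**
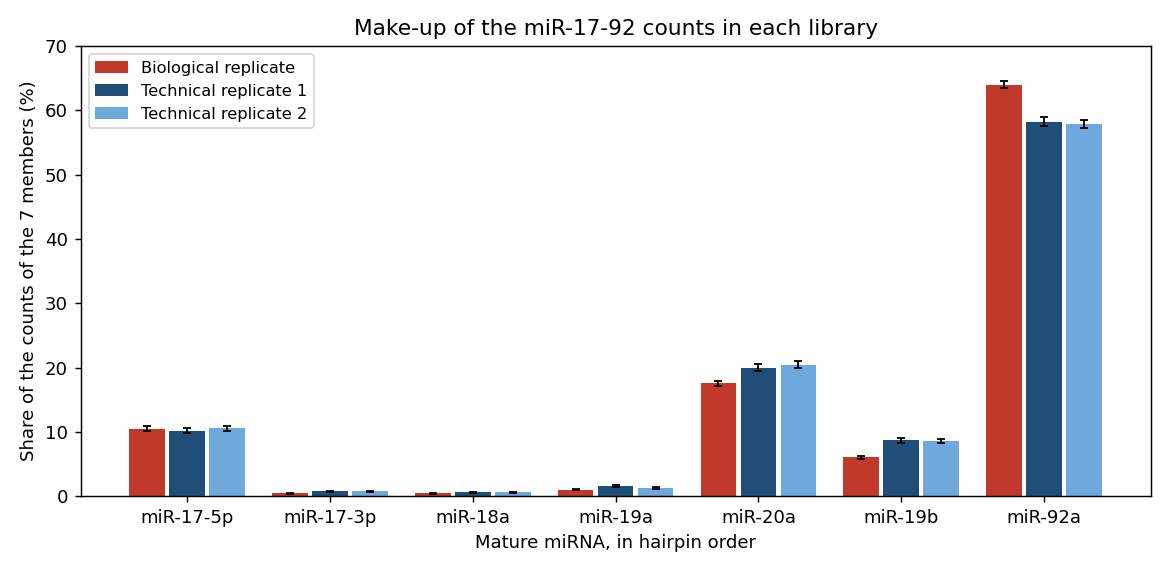
Share of each member in the summed counts of the 7 members, in percent, in hairpin order, with exact 95% intervals. miR-92a takes 64.0% in the biological replicate against 58.2% and 57.9% in technical replicates 1 and 2, and miR-20a and miR-19b take less there.

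Ratios within a library show the same members side by side. There were 10.6 counts of miR-92a for each of miR-19b in the biological replicate, against 6.68 and 6.76 in technical replicates 1 and 2, a log2 difference of 0.66 ± 0.04 (SE of counting) between the preparations and of 0.02 ± 0.05 within the technical pair. For miR-17-5p over miR-19b the ratio was 1.74 in the biological replicate against 1.17 and 1.23. The ratio of miR-17-5p to its seed mate miR-20a was 0.598 in the biological replicate against 0.508 and 0.517. The ratio of miR-19b to miR-19a did not set the biological replicate apart, at 5.82 against 5.73 and 6.94.

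Set against all miRNAs, 2 of the 7 members were higher in the biological replicate, none was lower and 5 did not pass (quasi-likelihood test in edgeR on 367 miRNAs, with p-values adjusted by Benjamini-Hochberg and a threshold of 0.05). Over all miRNAs tested, 17.7% were called higher and 20.2% lower, so a count of 2 is near the background and is no result about the cluster. The median log2 fold change was -0.09 over the 7 members and 0.01 over all tested. miR-92a rose by 0.46 ± 0.09 (SE, adjusted p = 1.0e-05) and miR-17-5p by 0.34 ± 0.10 (adjusted p = 0.0029). miR-20a had 0.12 ± 0.10 (adjusted p = 0.38), miR-19b -0.20 ± 0.11 (adjusted p = 0.14) and miR-17-3p -0.32 ± 0.19 (adjusted p = 0.18). For miR-19a (-0.09 ± 0.16) and miR-18a (-0.15 ± 0.20) the SE exceeded the difference.

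These calls change with the scaling between libraries and with the fit. Fold changes were 0.18 log2 units higher at the median with TMM than with library totals, and with library totals neither miR-92a (0.28, edgeR adjusted p = 0.054) nor miR-17-5p (0.16, adjusted p = 0.25) passed, while miR-19b (-0.38, adjusted p = 0.040) and miR-17-3p (-0.50, adjusted p = 0.049) were lower and miR-20a turned to -0.07. The prior degrees of freedom were 4.30 in that fit and infinite in the fit with TMM, so scaling was not the only difference between them. Of all miRNAs tested, 6.54% were then called higher and 23.4% lower. When the fit was limited to miRNAs averaging 100 CPM or more, miR-92a was called higher and miR-19b lower, beside 15.6% and 26.3% of all those tested, and miR-17-5p did not pass (0.19, edgeR adjusted p = 0.17). The spread in the test comes from the technical pair alone, with 1 residual degree of freedom. Where the prior degrees of freedom are infinite, as in the fit with TMM, this spread is pooled over miRNAs. An SE from that fit is therefore not the spread of a member's own technical pair. A single biological library is taken to vary likewise, so a p-value here speaks of these libraries, not of animals.

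**Figure D3:**
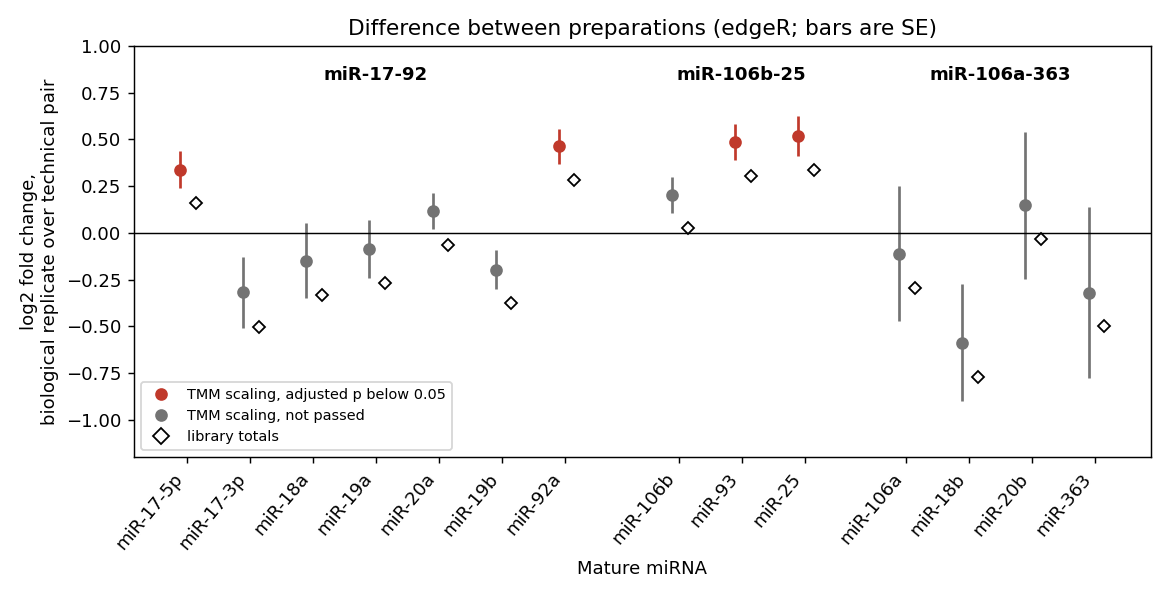
log2 fold change of the biological replicate over the technical pair for the members and the miRNAs of the related clusters, with TMM scaling (circles with SE, red where the adjusted p was below 0.05) and with library totals (diamonds). miR-17-5p and miR-92a pass with TMM at 0.34 and 0.46, and every diamond lies lower than its circle.

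The miR-106b-25 cluster, whose members share the seeds of miR-17-5p and miR-92a, was the more abundant in summed counts. Most of these were of miR-25, with 67465 of 77497 in the biological replicate, and 45030 of 52471 and 48772 of 57104 in technical replicates 1 and 2. By their means miR-93 (693 CPM) and miR-106b (723 CPM) lay near miR-20a (730 CPM). The counts of the miR-17-92 members amounted to 0.352 of those of miR-106b-25 in the biological replicate and to 0.397 in each technical replicate. miR-25 stood at 10056 CPM in the biological replicate, with 8118 and 7801 CPM in the technical replicates, and rose by 0.52 ± 0.11 (SE, edgeR adjusted p = 1.4e-05). miR-93 had 766 CPM against 628 and 611 CPM and rose by 0.49 ± 0.10 (adjusted p = 4.3e-06), and miR-106b had 729 CPM against 713 and 721 CPM (0.20 ± 0.10, adjusted p = 0.078). With TMM 2 of the 3 were called higher, beside 17.7% over all miRNAs. With library totals miR-93 and miR-25 had 0.31 and 0.34 and only 1 of the 3 passed, beside 6.54% called higher over all miRNAs. None of the 4 miRNAs particular to miR-106a-363 passed. These had 8 to 47 counts in any library and SEs of 0.31 to 0.46, so not passing says little about them. Whether the clusters differ in their change between preparations was not tested.

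Seed groups were taken from general knowledge of the families, since no sequences were used. In the miR-17 group (miR-17-5p, miR-20a, miR-20b, miR-93, miR-106a and miR-106b), miR-17-5p and miR-20a supplied 43.2% of the counts in the biological replicate (interval 42.4 to 43.9%), against 45.7% in each technical replicate (44.8 to 46.5% and 44.9 to 46.5%). Within it miR-20a held 27.0% in the biological replicate against 30.3% and 30.1%, and miR-93 held 29.03% against 25.3% and 24.8%. In the miR-92a group (miR-92a, miR-25, miR-32, miR-92b and miR-363), miR-92a supplied 19.0% in the biological replicate against 19.3% and 19.4%, with overlapping intervals, and miR-25 held 73.3% against 71.8% and 71.9%. miR-32 and miR-92b were called higher, by 0.30 and 0.28 on the log2 scale (edgeR adjusted p = 0.0079 and 0.016), but of the 6 alternative fits they passed only that with summed rows. Their adjusted p was 0.47 for both with library totals in edgeR, with log2 fold changes of 0.12 and 0.10. In the miR-18 group miR-18a supplied 80.3% in the biological replicate against 73.3% and 76.7%, from 147, 176 and 172 counts in all, with overlapping intervals. Since no sequences were used, how the counting divided reads among similar miRNAs of a group was not checked and is uncertain.

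**Figure D4:**
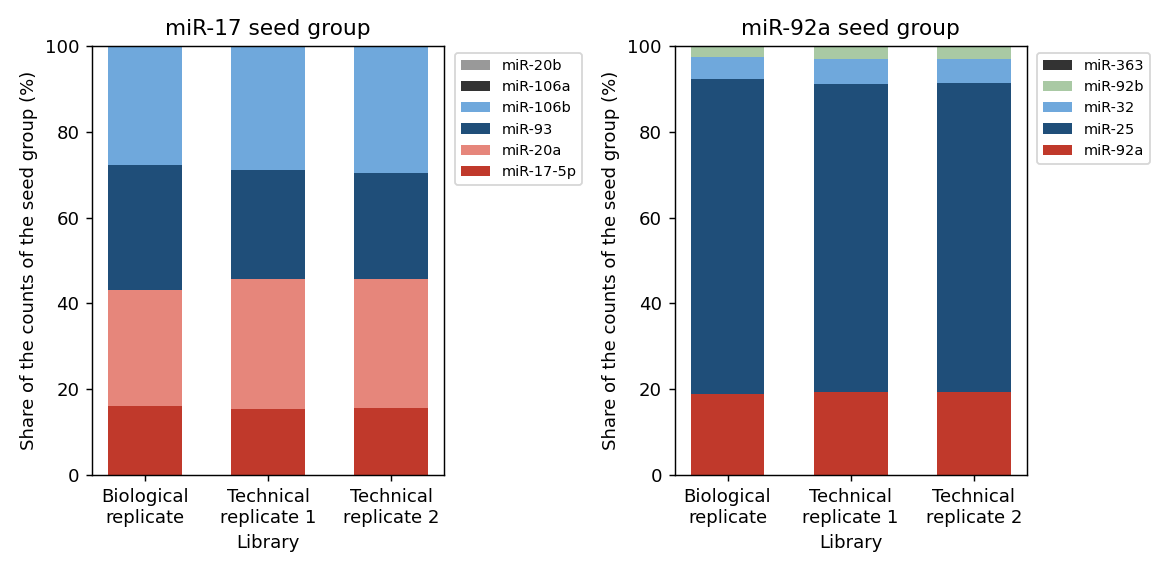
Make-up of the miR-17 and miR-92a seed groups in percent of their counts, by library, with the miR-17-92 members in red shades at the base. They supply 43.2% of the miR-17 group in the biological replicate and 45.7% in each technical replicate, and 19.0 to 19.4% of the miR-92a group, while miR-106a, miR-20b and miR-363 are too scarce to be seen.

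The miRNAs with the most similar levels over the 3 libraries, by Euclidean distance of log2(CPM + 1) among 328 candidates outside these families, were miR-423-3p and miR-320a for miR-92a (distances of 0.20 and 0.25), miR-28 and miR-30c for miR-20a (0.19 and 0.27), miR-433 and miR-16b for miR-17-5p (0.16 and 0.22), and miR-652 and miR-29b for miR-19b (0.20 and 0.26). With 3 libraries, this likeness is mostly one of level. In CPM miR-16b, for example, was lowest in the biological replicate, with 381 CPM against 393 and 423 in the technical replicates. miR-17-5p was highest there. This contrast in direction depends on the scaling. With TMM the log2 fold changes had the same sign, 0.08 for miR-16b (edgeR adjusted p = 0.59) and 0.34 for miR-17-5p.

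Some miRNAs of blood and vessel cells also differed between the preparations. Of the erythrocyte markers, miR-486 had 1080 CPM in the biological replicate and 873 and 816 CPM in the technical replicates, and rose by 0.53 ± 0.09 (SE, edgeR adjusted p = 2.9e-07). The erythroid miR-451 had 16.8 CPM against 23.6 and 20.2 (adjusted p = 0.51), and 4 counts of miR-144 stood against 5 and 6. The summed share of these 3 was 0.110% in the biological replicate against 0.0898% and 0.0837%. This sum follows miR-486, which held 7242 of its 7359 counts in the biological replicate, and 4845 of 4981 and 5101 of 5233 in the technical replicates. It does not speak for miR-451 and miR-144, whose CPM were lowest in the biological replicate. Leukocyte markers summed to 0.0123% in the biological replicate against 0.0281% and 0.0280%, with miR-146a and miR-142-5p called lower among 5 tested and none higher, beside the 20.2% called lower over all miRNAs. In DESeq2 the call on miR-142-5p was lost (adjusted p = 0.11). Both arms of the endothelial miR-126 were lower (0.113% in sum, against 0.182% and 0.189%), as were 5 of 6 vessel wall and connective tissue markers. Striated muscle markers summed to 0.0152% against 0.0129% and 0.0134%, with miR-1 called higher among 3 tested and miR-208a and miR-208b at 0 in every library. The call on miR-1, beside the 17.7% called higher over all miRNAs, was lost with library totals (edgeR adjusted p = 0.16), in DESeq2 (adjusted p = 0.083) and with the fit limited to 100 CPM or more (adjusted p = 0.12). The part of these cells in the levels of the cluster was not tested. The libraries hold RNA of a vesicle preparation, in which numbers of cells, RNA per cell and purity of the preparation cannot be told apart.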

How the data were processed

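Per the labels' protocols, total RNA of purified vesicles was extracted with a column kit, and small RNA libraries were made from 500 ng. The deposited table holds raw read counts for each mature miRNA and hairpin (919 rows), with CPM by the authors, each the count over the column total (largest deviation 0.005). The authors' log2 table (459 rows) equals log2(CPM + 0.1) over its own rows, tested on the file. The submitters' processing notes name the build UMD3.1 and the package edgeR. The aligner is not given in the sources used here. Where a mature miRNA had several rows, the fullest was used, and CPM were recomputed over these, so they exceed the deposited CPM. The comparison of the biological replicate with both technical replicates used edgeR 4.0.16 (TMM, quasi-likelihood test, R 4.3.3) over the 367 miRNAs that reached 10 counts in any library. SEs were derived from the log2 fold change and its F value. The prior degrees of freedom were estimated as infinite, so p-values serve as a threshold. Alternatives were library totals, DESeq2 1.42.0 and its size factors, other count filters and summed rows. Members, lists and tests were chosen with earlier results of these data known. Named miRNAs are the members, their relatives, the 2 nearest miRNAs for each member above 100 CPM, and cell type markers.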

Additional observations from a re-analysis of the deposited data

How the results depend on the processing

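The calls on the members changed with the scaling and fit. With library totals 0 members were higher and 2 lower, and in edgeR with only miRNAs of at least 100 CPM fitted (4 members), 1 was higher and 1 lower. miR-17-5p did not pass with library totals (0.16) or at 100 CPM (0.19), nor did miR-92a with library totals (0.28). miR-17-3p passed with library totals (-0.50), and miR-19b with library totals (-0.38) and at 100 CPM (-0.34). miR-20a, not called, turned to -0.065 and -0.032 in these fits. Over all miRNAs 139 of 367 were called. DESeq2 1.42.0 called 84, with 226 not passed and the rest given no adjusted p. At 100 CPM 70 of 167 were called, so these counts rest on different numbers of miRNAs. Summing rows gave a cluster share of 0.493% and a miR-92a group share of 31.9%, since the rows of miR-92a then add up. DESeq2 size factors, DESeq2 and no count filter changed no call on a member. With 1 technical library left out, a value with no test, miR-92a had 0.41 to 0.51, miR-17-5p 0.32 to 0.36, miR-20a 0.09 to 0.15, miR-19b -0.26 to -0.14, miR-17-3p -0.37 to -0.27, miR-18a -0.24 to -0.06 and miR-19a -0.28 to 0.12. No paired analysis was possible because the labels pair no library of one group with a library of the other.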
